A study of Homo sapiens with 12 samples.

Results

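The transcriptional effect of ovarian cancer ascites on CAOV3 cells that received no drug was measured in 6 of the 12 libraries of a study of ascites and bezafibrate. The libraries were chosen by their titles: 3 control libraries and 3 libraries of cells given ascites. Of 19677 genes listed in each count table, 12470 had enough counts to be tested, and the results below cover all of these. CAOV3 is an established human cell line, labelled as ovarian epithelium of the high-grade serous type with a wild-type (WT) genotype. Both groups were labelled as given DMSO, the solvent, so that DMSO is common to them. The cells were grown in 6-well plates, in 1.5 mL of DMEM medium with 10% fetal bovine serum (FBS). For the ascites group 150 uL of ascites was added, labelled as 10%, and the treatment lasted 16 h. The labels of the control libraries carry no time, and what was added to their wells in place of the 150 uL is not given in the sources used here. The labels do not say how many ascites samples were used, whether the fluid was cleared of cells, or whether the 3 replicates of a group came from separate cultures. The p-values therefore measure only the spread between these libraries, which may be technical. The other 6 libraries came from cells given 200 uM bezafibrate for 16 h, with or without 10% ascites, and they entered the estimate of the error and a comparison of the ascites effect in drug-treated cells.

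Ascites is the protein-rich fluid that collects in the abdomen in advanced ovarian cancer, and it is known to carry plasma proteins, lipoproteins, cytokines and growth factors. Cells hold their cholesterol within limits through the SREBP transcription factors, which leave the endoplasmic reticulum with their escort SCAP when sterol is scarce and switch on the enzymes of cholesterol and fatty acid synthesis, while INSIG proteins keep them in the endoplasmic reticulum when sterol is plentiful. Iron is taken up as transferrin-bound iron through the transferrin receptor, and the iron regulatory proteins bind hairpins in the untranslated regions of mRNAs of iron uptake and storage when iron is scarce. Binding protects the transferrin receptor mRNA from decay and blocks the translation of the ferritin mRNAs.

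The 6 libraries held between 12550494 and 14816993 counts. The number of genes with any count ran from 14290 to 14457 per library. The 10 highest genes held between 4.69% and 4.78% of the counts. Pairs of replicates differed by more than sampling noise, with a chi-square per degree of freedom between 1.44 and 2.05 in these 6 libraries, so that no library was counted as a copy of another. In the drug-treated cells the replicate 3 library of bezafibrate with ascites stood apart, with a chi-square per degree of freedom of 4.45 against replicate 1 of its group. The cells were checked against marker genes. Epithelial keratins were abundant in all 6 libraries, with KRT8 between 2967 and 3166 CPM (counts scaled to the library size) and KRT7 between 755 and 807 CPM. The markers of serous carcinoma PAX8 (1 to 13 counts per library), WT1 (0 to 4 counts), MUC16 (0 to 3 counts) and FOLR1 (0 to 5 counts) were close to 0, and SOX17 had 0 counts. These genes therefore did not bear out the labelled serous type. Of the same list of 12 genes, MECOM (458 to 602 counts per library), EPCAM (360 to 484 counts) and CDH1 (210 to 279 counts) were detected in every library, as were the 4 keratins. The list, of which the keratins hold most, summed to 6218 to 6318 CPM in control and 6413 to 6569.9 CPM in ascites, without overlap, with log2 ratios of 0.08 for KRT7 and 0.06 for KRT8 (edgeR adjusted p 0.753 for each). Of 14 markers of blood cells and platelets, 8 had 0 counts in all 6 libraries, among them the leukocyte gene PTPRC and the platelet gene PF4. Their summed level was 75.5 to 78.9 CPM in control and 76.3 to 86.3 CPM in ascites, nearly all of it CD68. The 6 mesothelial markers summed to 2.66 to 3.54 CPM in control and 2.23 to 2.91 CPM in ascites. The 8 markers of fibroblasts and endothelium summed to 193 to 198 CPM in control and 187 to 196 CPM in ascites, mostly LUM, and COL1A2 had 0 counts. The summed ranges of these 3 lists overlapped between the groups, while within the last list COL3A1 (log2 ratio 0.38, edgeR adjusted p 0.815) and LUM (-0.05, edgeR adjusted p 0.920) did not overlap. The part of these markers in the results below was not tested. In bulk RNA, fewer cells of a type and less RNA per cell cannot be told apart.

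With edgeR's quasi-likelihood test, 11 genes fell in the ascites group and 0 rose at an adjusted p under 0.05, which is 0.0882% of the genes tested. They included the transferrin receptor gene TFRC, 5 genes of cholesterol and fatty acid supply (SCD, INSIG1, IDI1, MSMO1 and ACACA), the inositol transporter gene SLC5A3, the corepressor gene HR and RAB43. In each of the 11 the 3 ascites libraries lay on one side of the 3 control libraries without overlap, which held for 12.7% of all tested genes. Without adjustment 749 genes had a p under 0.05, or 6.01% of those tested, of which 453 were lower with ascites (3.63% of those tested) and 296 were higher (2.37%). The lowest adjusted p of a higher gene was 0.187 with edgeR. DESeq2 called 1 higher gene, limma-voom called 0, and edgeR fitted to these 6 libraries alone called 10 higher and 23 lower genes.

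**Figure D1:**
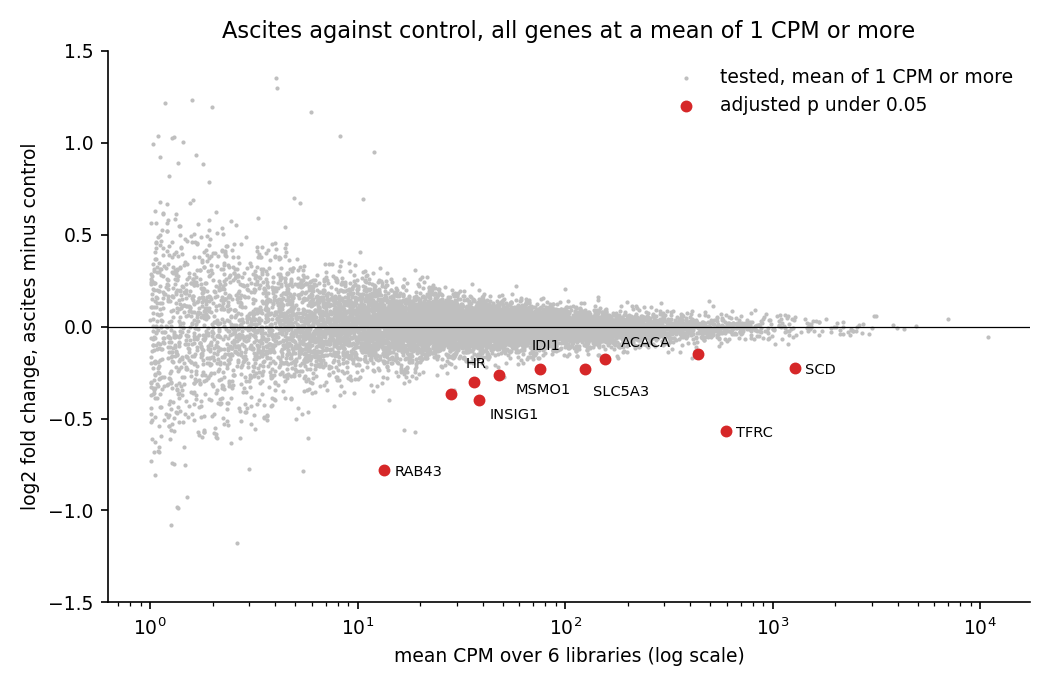
Log2 fold change of ascites over control against the mean CPM of the 6 libraries, on a log axis, for the 11937 tested genes with a mean of 1 CPM or more, of which 4 lie outside the vertical axis. Each point is a gene, and the 11 red points, all below 0, are the genes with an edgeR adjusted p under 0.05.

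The sizes of change were small, and the precision was high for genes with many counts. The median log2 fold change over all genes was -0.0018, and 6373 of the 12470 genes (51.1%) were lower with ascites. The 95% interval of the fold change lay within 1.5-fold in either direction for 10825 genes (86.8%). This held for 99.8% of the 6940 genes with a mean of 10 to 100 CPM and for 58.1% of the 2614 genes with a mean of 1 to 10 CPM. Of the 533 genes under 1 CPM it held for 0%, so that a change of 1.5-fold in those genes was not detectable at this depth.

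TFRC (ENSG00000072274.13) encodes the transferrin receptor, through which cells take up iron. It lies on the minus strand at chr3:196027183-196082189 (GRCh38). Its level was 712, 710.1 and 709 CPM in the control libraries and 477, 477 and 484 CPM in the ascites libraries. The groups did not overlap, and the gap between them was far wider than the spread within either. TFRC fell by 32.6%, from 710.5 ± 1.63 CPM to 479 ± 4.38 CPM (SD, n = 3), a log2 ratio (log2 fold change) of -0.57 with a 95% interval from -0.63 to -0.51 (edgeR adjusted p 1.27e-16). It was called in all 6 fits that left out 1 library and in all 13 other alternatives.

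The iron-responsive hairpins are shown because iron regulatory proteins are known to act on this mRNA through them. A script searched the transcripts of GENCODE 29 (GRCh38) for an unpaired C, a stem of 5 paired bases and the loop letters CAGTG followed by A, C or T. Of 19702 protein-coding genes, 187 (0.949%) held a match. TFRC held 4 matches to this pattern, all in the 3′ UTR of transcript ENST00000360110.8, which is 5111 bases long. The ferritin genes FTH1 and FTL each held 1 in the 5′ UTR, as did the iron exporter gene SLC40A1, whose site is not printed. Hairpins that depart from the pattern were not searched for. In the sequences, written 5′ to 3′ as 27 bases each, the capitals mark the loop of 6 bases.
TFRC site 1, chr3:196050980-196051006, minus strand: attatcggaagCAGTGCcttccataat
TFRC site 2, chr3:196050576-196050602, minus strand: attatcgggagCAGTGTcttccataat
TFRC site 3, chr3:196050511-196050537, minus strand: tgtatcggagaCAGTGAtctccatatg
TFRC site 4, chr3:196050464-196050490, minus strand: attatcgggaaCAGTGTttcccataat
FTH1 site, chr11:61967575-61967601, minus strand: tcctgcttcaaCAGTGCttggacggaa
FTL site, chr19:48965336-48965362, plus strand: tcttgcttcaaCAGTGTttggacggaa
The match is of letters only, and binding of a protein was not measured.

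No other gene of iron handling was called, against 0.0882% called among all tested genes. Of the 22 tested genes of iron uptake, storage and control, 9 were lower and 13 higher with ascites, and their median log2 fold change was 0.01. An unadjusted p under 0.05 was reached by 2 lower genes (TFRC and SLC11A2) and by 3 higher genes (SLC25A28, STEAP2 and HFE). SLC11A2, the transporter that moves iron out of endosomes, was at 53.5, 59.9 and 54.3 CPM in control and 52.6, 52.5 and 48.1 CPM in ascites, groups that just did not overlap (log2 fold change -0.13, SE 0.054, edgeR adjusted p 0.761).
The ferritin heavy chain mRNA FTH1 was at 2970 ± 88.9 CPM in control and 2886 ± 44.3 CPM in ascites (SD, n = 3), with overlapping groups and a 95% interval of the log2 fold change from -0.09 to 0.01. For the ferritin light chain mRNA FTL the interval ran from -0.05 to 0.08. The translation of these mRNAs was not measured. IREB2, which encodes an iron regulatory protein, had a log2 ratio of -0.07 (SE 0.041), and ACO1, which encodes the other, one of -0.005 (SE 0.050). FBXL5, which targets iron regulatory proteins for degradation, was at 0.12 (SE 0.081), and NCOA4, the receptor for ferritin breakdown, at 0.01 (SE 0.036). The iron exporter gene SLC40A1 was near 1 CPM in every library, too low for a narrow interval (-0.46 to 0.82).

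**Figure D2:**
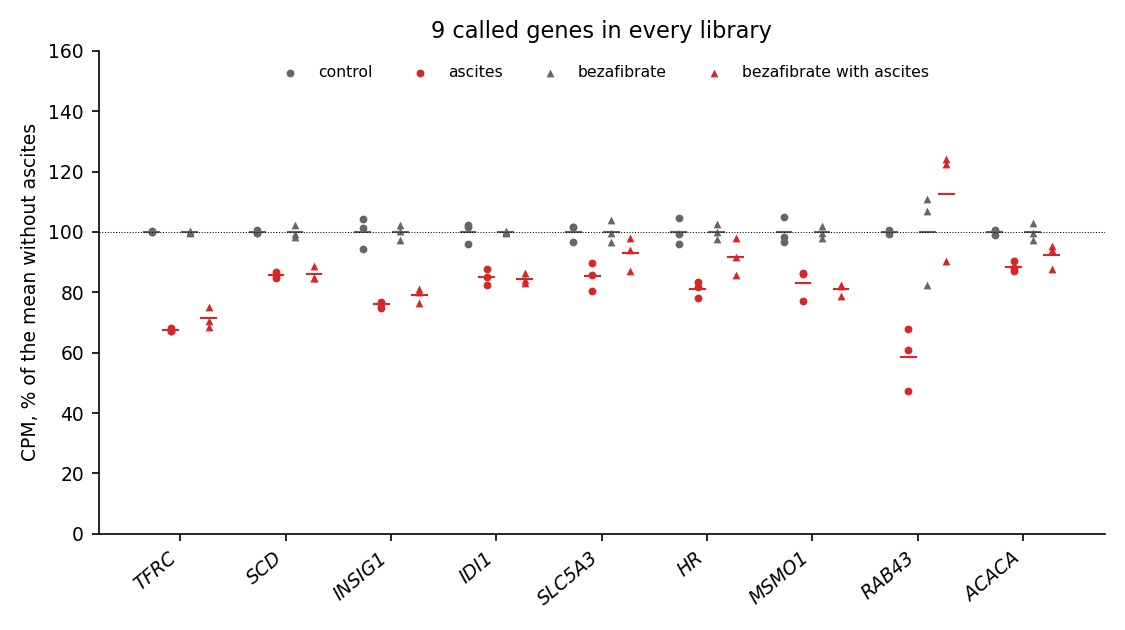
CPM of 9 called genes in each library, as a percentage of the mean of the libraries without ascites (control, or bezafibrate for the drug-treated cells). Points are libraries and short lines are means of 3. In every gene the 3 ascites libraries (red circles) lie below the 3 control libraries (grey circles), and in drug-treated cells (triangles) RAB43 is the 1 gene with a higher mean with ascites.

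The 22 tested enzymes of the cholesterol pathway are described here in the order of their reactions, first the 10 of the mevalonate arm, which ends in squalene, and then the 12 that turn squalene into cholesterol. Of the 22, 19 were lower with ascites and 3 fell at an adjusted p under 0.05, against 51.1% lower and 0.0882% called among all tested genes. An unadjusted p under 0.05 was reached by 11 lower and 0 higher enzymes, against 3.63% and 2.37% of all tested genes, and in 14 of the 22 the groups did not overlap, against 12.7% of all tested genes. The median change over the 22 was -7.44%.

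In the mevalonate arm the median log2 ratio of the 10 enzymes was -0.11, against -0.0018 over all genes. In single libraries, relative to the control mean, this median was -0.16, -0.11 and -0.08 with ascites and between -0.01 and 0.02 in control. IDI1 (ENSG00000067064.12, chr10:1039152-1049170, minus strand), which interconverts the isoprenoid building blocks, was at 78.5, 83.1 and 83.4 CPM in control and at 67.4, 69.4 and 71.7 CPM in ascites. It fell by 14.8% (log2 fold change -0.23, SE 0.045, edgeR adjusted p 0.0225). The call was kept in 1 of the 6 fits that left out 1 library, with an edgeR adjusted p of up to 0.293, and in all 13 other alternatives. HMGCS1, the synthase that makes HMG-CoA, was at 369, 385 and 375 CPM in control and at 341, 342 and 344 CPM in ascites. Its groups did not overlap, but its edgeR adjusted p was 0.0654 (log2 fold change -0.14, SE 0.030). ACAT2, which joins the first acetyl units, had a log2 ratio of -0.22 (edgeR adjusted p 0.364), and FDFT1, which makes squalene, one of -0.13 (edgeR adjusted p 0.460).
PMVK, a kinase of the pathway, was the 1 mevalonate enzyme on the other side of 0, at 0.14 (SE 0.092).

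From squalene to cholesterol the median log2 ratio of the 12 enzymes was also -0.11, and in single libraries it was -0.14, -0.13 and -0.10 with ascites and between -0.03 and 0.04 in control. MSMO1 (ENSG00000052802.13, chr4:165327623-165343160, plus strand), which removes methyl groups from lanosterol, was at 51.2, 50.4 and 54.7 CPM in control and at 40.2, 45.0 and 44.8 CPM in ascites, and it fell by 16.8% (log2 fold change -0.26, SE 0.055, edgeR adjusted p 0.0388).
The call of MSMO1 was not kept in any of the 6 fits that left out 1 library, where its edgeR adjusted p ranged from 0.0789 to 0.559, and it was lost in 5 of 13 other alternatives, DESeq2 and limma-voom among them. The epoxidase gene SQLE, the cyclase gene LSS and the reductase gene DHCR7 had log2 ratios of -0.17, -0.17 and -0.15 with no overlap between groups and edgeR adjusted p of 0.450, 0.460 and 0.352. The genes TM7SF2 and LBR, whose products carry out the same reduction of the sterol ring, were at 0.07 (SE 0.078) and 0.02 (SE 0.040), the 2 enzymes of this stretch above 0.

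The genes of sterol sensing, uptake and transport held 2 called genes of 19 tested, and 12 of the 19 were lower, against 0.0882% called and 51.1% lower among all tested genes. INSIG1 (ENSG00000186480.13, chr7:155297776-155310235, plus strand) encodes a retention protein of the SREBP pathway and is itself a textbook SREBP target. Its level was 45.6, 44.2 and 41.2 CPM in control and 32.8, 33.6 and 33.3 CPM in ascites, with no overlap. INSIG1 fell by 24.2% (log2 fold change -0.40, SE 0.058, edgeR adjusted p 0.00022).
LPIN1, a phosphatidate phosphatase, had a log2 ratio of -0.27 (edgeR adjusted p 0.0654), the sterol carrier gene STARD4 one of -0.28 (0.753) and the lysosomal cholesterol exporter gene NPC1 one of -0.17 (0.511), all with edgeR. The SREBP genes themselves were close together, SREBF2 at -0.12 (SE 0.049, edgeR adjusted p 0.761) and SREBF1 at -0.06 (SE 0.042, edgeR adjusted p 0.909). Of the genes whose products carry and cut SREBP, SCAP was at 0.04, MBTPS1 at 0.003 and MBTPS2 at 0.06. INSIG2, which encodes a retention protein, was at -0.07. The edgeR adjusted p of these genes ran from 0.964 to 0.995. The median of the 19 genes was -0.06, and it was -0.01 without the replicate 3 library of ascites.

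Fatty acid synthesis, desaturation and elongation held 2 called genes of 18 tested, with 15 lower, 3 higher and a median log2 ratio of -0.08. Among all tested genes 0.0882% were called, 51.1% were lower and the median was -0.0018. SCD (ENSG00000099194.6, chr10:100347124-100364834, plus strand) encodes the desaturase that makes oleate. Its level was 1372, 1387 and 1372 CPM in control and 1181, 1165 and 1192 CPM in ascites, again 2 tight sets with a wide gap. SCD fell by 14.3% (log2 fold change -0.22, SE 0.025, edgeR adjusted p 1.24e-06). ACACA (ENSG00000278540.5, chr17:37084988-37406818, minus strand), the carboxylase that commits acetyl-CoA to fatty acids, was at 163, 166 and 165 CPM in control and at 143, 145 and 148 CPM in ascites. It fell by 11.5% (log2 fold change -0.18, SE 0.038, edgeR adjusted p 0.0449) and was not called in any of the 6 fits that left out 1 library, where its edgeR adjusted p ranged from 0.145 to 0.465. It was also lost in 6 of 13 other alternatives, limma-voom among them.
The front-end desaturase genes FADS1 and FADS2 had log2 ratios of -0.14 (edgeR adjusted p 0.0744) and -0.17 (0.535, edgeR), with no overlap between groups in either. FASN, the fatty acid synthase gene, was at 599, 577 and 572 CPM in control and at 549, 541 and 553 CPM in ascites, a log2 ratio of -0.09 (SE 0.038, edgeR adjusted p 0.801). ACLY, which supplies cytosolic acetyl-CoA, was at -0.07 with overlapping groups. GPAM, which starts glycerolipid synthesis, was at 0.003 (SE 0.058).

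In the fit of these 6 libraries alone, HMGCS1, FADS1, LPIN1 and DHCR7 were also called, at edgeR adjusted p of 0.00428, 0.00428, 0.0207 and 0.0362. They were picked here after their values were seen, from the 33 genes called in that fit. The same fit also called lower genes outside the lists of cholesterol and fatty acid supply. Among them were MKI67 (edgeR adjusted p 0.000139), CHD7 (0.00755), VCAN (0.0241), PRKCA (0.0350), CAST (0.0411) and NDRG1 (0.0497), all with edgeR.

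**Figure D3:**
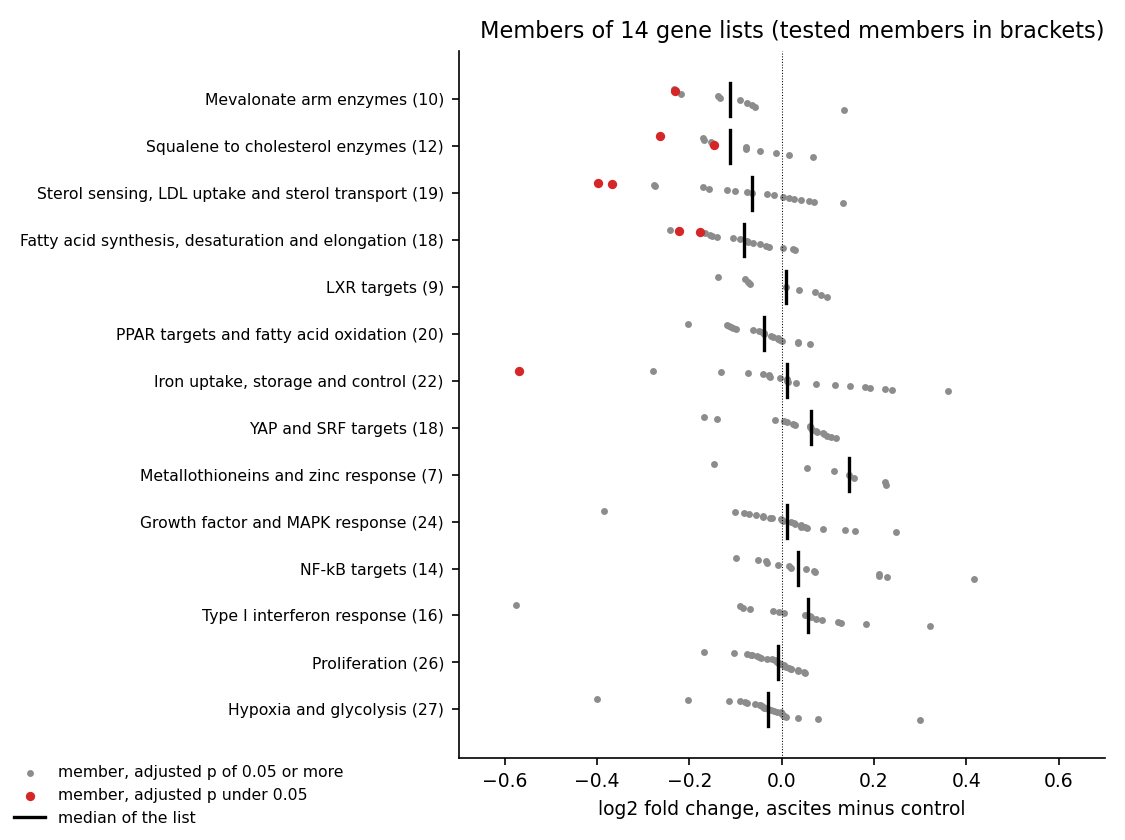
Log2 fold change of ascites over control for the tested members of 14 gene lists, 1 point per gene. Black bars are medians and red points are genes with an edgeR adjusted p under 0.05. The 4 lists of cholesterol and fatty acid supply at the top have medians from -0.11 to -0.06, and TFRC stands apart from the other 21 iron genes.

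Genes of cholesterol and fatty acid supply are known SREBP targets, and SREBP works on promoters beside NF-Y, which binds CCAAT boxes. RefSeq promoter windows (GRCh38.p14) were therefore read for the 250 bases before the start of each gene, on both strands, for the letters CCAAT and, separately, for TCACNCCAC, the core of the sterol element. Neither motif contains the other. Of all 35116 windows, 32% held CCAAT, and of the 10038 tested genes with a window 41.8% did. Among the cholesterol enzymes 17 of 22 had a window, and 14 of those 17 (82.4%) held CCAAT. The share was 8 of 15 among the genes of sterol sensing and uptake and 10 of 16 among the fatty acid genes. TCACNCCAC was in 0.883% of all windows and in 1.17% of the tested genes with a window. It was in the window of 1 gene of sterol sensing, SREBF2, in those of the fatty acid genes ACSL1 and MID1IP1, and in 0 of 17 cholesterol enzymes. Of the 11 called genes 8 had a window, of which 5 (62.5%) held CCAAT and 0 held TCACNCCAC. These counts describe letters in a window and say nothing of what bound there.
Windows of 3 called genes with CCAAT and of SREBF2 with the sterol element core are shown, 5′ to 3′ along the gene and ending at the base before the start, with the matched letters in capitals (ATTGG is CCAAT on the other strand). In SREBF2 the capitals mark the sterol element core only. The start is that of RefSeq, which can differ from the gene span given above.
INSIG1, chr7:155297628-155297877, plus strand: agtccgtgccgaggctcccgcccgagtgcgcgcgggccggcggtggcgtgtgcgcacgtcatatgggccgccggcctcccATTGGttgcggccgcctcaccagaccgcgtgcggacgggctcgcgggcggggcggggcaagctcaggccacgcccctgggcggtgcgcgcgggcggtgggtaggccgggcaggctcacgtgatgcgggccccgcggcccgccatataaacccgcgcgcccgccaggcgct
MSMO1, chr4:165327419-165327668, plus strand: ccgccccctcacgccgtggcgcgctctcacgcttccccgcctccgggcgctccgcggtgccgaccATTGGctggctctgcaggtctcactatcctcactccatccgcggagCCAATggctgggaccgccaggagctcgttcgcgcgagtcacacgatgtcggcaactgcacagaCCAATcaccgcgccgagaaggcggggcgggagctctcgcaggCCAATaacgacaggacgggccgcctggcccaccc
SCD, chr10:100346983-100347232, plus strand: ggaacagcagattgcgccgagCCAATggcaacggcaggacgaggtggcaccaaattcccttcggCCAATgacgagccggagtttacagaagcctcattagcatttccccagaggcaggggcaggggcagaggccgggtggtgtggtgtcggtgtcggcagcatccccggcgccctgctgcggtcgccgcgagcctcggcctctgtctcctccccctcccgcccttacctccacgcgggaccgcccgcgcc
SREBF2, chr22:41832855-41833104, plus strand: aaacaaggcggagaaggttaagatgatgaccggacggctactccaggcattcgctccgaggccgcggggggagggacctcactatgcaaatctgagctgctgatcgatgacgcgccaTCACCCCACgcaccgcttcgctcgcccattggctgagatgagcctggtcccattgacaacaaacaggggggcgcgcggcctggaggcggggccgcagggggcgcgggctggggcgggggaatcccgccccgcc
The window of MSMO1 holds 4 CCAAT boxes, that of SCD 2 and that of INSIG1 1.

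The neighbouring lipid programmes held no called gene. Among all tested genes 0.0882% were called and 51.1% were lower. At that share of calls lists of this size seldom hold a called gene. Of 9 tested targets of LXR, the receptor that responds to oxidised sterols, 4 were lower and 5 higher, with a median of 0.01, and 0 had an unadjusted p under 0.05. Over the alternatives that median ranged from -0.05, without the replicate 3 library of ascites, to 0.02. The cholesterol exporter genes ABCA1 and ABCG1 were at -0.07 (SE 0.080) and -0.07 (SE 0.129). Of 20 tested targets of PPAR receptors and genes of fatty acid oxidation, 16 were lower and 4 higher, with a median of -0.04, and 1, CREB3L3, had an unadjusted p under 0.05.

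SLC5A3 (ENSG00000198743.7, chr21:34073570-34106262, plus strand) encodes the sodium-coupled transporter of myo-inositol, an osmolyte. It was at 136, 136 and 129.5 CPM in control and at 120.3, 108 and 115 CPM in ascites. SLC5A3 fell by 14.7% (log2 fold change -0.23, SE 0.045, edgeR adjusted p 0.0225), and leaving out 1 library kept the call in 1 of 6 fits. The gene overlaps MRPS6 on the same strand, and MRPS6 was at 62.2 CPM in control and 64.2 CPM in ascites (log2 fold change 0.05, SE 0.051). No other osmolyte gene was called: of 11 tested, 7 were lower and 4 higher, with a median of -0.008. Among all tested genes 0.0882% were called and 51.1% were lower. The osmolyte genes AKR1B1 and SLC6A6 had intervals of -0.04 to 0.10 and -0.08 to 0.08.

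HR (ENSG00000168453.16) encodes the hairless protein, a nuclear receptor corepressor whose own gene is a thyroid hormone target in brain. It was at 42.1, 38.6 and 39.98 CPM in control and at 32.9, 31.4 and 33.5 CPM in ascites, and it fell by 18.9% (log2 fold change -0.30, SE 0.062, edgeR adjusted p 0.0368). The call was lost in each of the 6 fits that left out 1 library, with an edgeR adjusted p from 0.0617 to 0.465, and in 3 of 13 other alternatives, limma-voom among them. THRA, which encodes a thyroid hormone receptor, was at 50.3, 48.6 and 48.7 CPM in control and at 44.2, 39.7 and 43.8 CPM in ascites, without overlap and with an edgeR adjusted p of 0.341. Of the 13 tested genes of steroid and thyroid hormone response, HR and THRA included, 8 were lower, and the median was -0.04.

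RAB43 (ENSG00000172780.17), which encodes a Rab GTPase, was called but is uncertain, because it shares its sequence with the read-through gene ISY1-RAB43. RAB43 was at 16.8, 16.97 and 17.1 CPM in control and at 10.3, 11.5 and 8.01 CPM in ascites. ISY1-RAB43 went the other way, at 0, 0 and 0.397 CPM in control and at 6.76, 4.29 and 8.48 CPM in ascites. With the counts of read-through genes added to the second gene of their name, the log2 ratio of RAB43 went from -0.78 to -0.05 (SE 0.083, edgeR adjusted p 0.976).

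Among genes uncalled with all 12 libraries, those of lowest p on the lower side included MKI67, VCAN, MDC1, PRKCA and CAST. In the fit of these 6 libraries alone MKI67 (edgeR adjusted p 0.000139), VCAN, PRKCA and CAST were called, and MDC1 was not. MKI67, the proliferation marker Ki-67, was at 423, 439 and 439 CPM in control and at 390.4, 378 and 388 CPM in ascites (log2 fold change -0.17, SE 0.039, edgeR adjusted p 0.172), without overlap. The proliferation list as a whole did not follow: 16 of its 26 genes were lower, 10 were higher, the median was -0.008, and all 26 had an interval within 1.5-fold.
On the higher side FAU, which encodes a ribosomal protein fused to a ubiquitin-like one, was at 291, 276 and 264 CPM in control and at 294, 307 and 308 CPM in ascites, without overlap (log2 fold change 0.13, SE 0.036, edgeR adjusted p 0.364). FAU was called in the fit of these 6 libraries alone (edgeR adjusted p 0.0362). L3MBTL2, a chromatin reader gene, was at 0.23 (SE 0.061, edgeR adjusted p 0.341), INO80C, of a chromatin remodeller, at 0.31 (SE 0.088, edgeR adjusted p 0.435), and the cytokine gene IL18 at 0.27 (SE 0.084, edgeR adjusted p 0.527). Larger positive values came from low genes, H4C9 at 1.21 (SE 0.329) and HLX at 1.03 (SE 0.316), both at 2.03 CPM or less in every library, and from HSPE1-MOB4, a read-through gene and uncertain for that reason. A trend with transcript length, described below, was not removed from the values of these uncalled genes, lower or higher. Its part in them was not tested.

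The signalling programmes that ascites is often studied for showed no called gene in the fit of all 12 libraries. Among all tested genes 0.0882% were called and 51.1% were lower. At that share of calls a list of this size seldom holds a called gene, so the absence of calls says little about these programmes. Of 14 tested NF-kB targets, 5 were lower and 9 higher, with a median of 0.04. Most of the chemokine and cytokine targets were too low to test: over 3 libraries a group, CXCL8 had 14 counts in control and 5 in ascites, IL6 had 0 and 0, and CCL2 had 1 and 2. BIRC3, an inhibitor of apoptosis and NF-kB target, was at 14.9, 14.7 and 12.9 CPM in control and at 15.8, 16.9 and 16.6 CPM in ascites, without overlap (log2 fold change 0.21, SE 0.093, edgeR adjusted p 0.802). Of 12 tested STAT3 and acute phase genes 7 were lower (median -0.02), of 16 interferon response genes 6 were lower (median 0.06), and of 18 TGF-beta targets 10 were lower (median -0.02). These 3 medians changed sign over the alternatives, with ranges of -0.04 to 0.01, -0.006 to 0.06 and -0.04 to 0.003. The interferon median was -0.006 without the replicate 3 library of ascites.
Of 24 growth factor and MAPK response genes, 11 were lower and 13 higher, with a median of 0.01. FOSL1, an immediate AP-1 component of this list, was at 135, 141 and 131 CPM in control and at 157, 149 and 147 CPM in ascites, without overlap (log2 fold change 0.16, SE 0.049, edgeR adjusted p 0.535). In the fit of these 6 libraries alone FOSL1 was called (edgeR adjusted p 0.0317).

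YAP, a transcriptional coactivator, and SRF, a transcription factor, respond to cell shape and to serum lipids. Their targets leaned to the higher side without a call. Of 18 tested, 15 were higher and 3 lower, and in 9 the groups did not overlap, against 12.7% of all tested genes. The median log2 fold change was 0.06, and in single libraries it was 0.05, 0.04 and 0.07 with ascites and between -0.005 and 0.007 in control. CCN1 was at 99.1, 100.6 and 95.9 CPM in control and at 101.5, 113 and 104 CPM in ascites (log2 fold change 0.11, SE 0.047, edgeR adjusted p 0.802). LATS2, which encodes a kinase that restrains YAP and is itself a target, lay on the other side at -0.17 (SE 0.061, edgeR adjusted p 0.675).

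Of the metallothioneins and zinc response genes, 6 of 7 tested were higher, with a median of 0.15, and MT1X had an unadjusted p under 0.05. The median was 0.22 without the replicate 3 library of control and 0.10 without replicate 2 of control or replicate 3 of ascites. MT2A, a metallothionein of metal storage, was at 139, 134 and 135 CPM in control and at 149, 150.2 and 152 CPM in ascites, without overlap (log2 fold change 0.15, SE 0.096, edgeR adjusted p 0.913). In the fit of these 6 libraries alone MT2A was called (SE 0.033, edgeR adjusted p 0.0317). Stress programmes held no called gene in the fit of all 12 libraries, where 0.0882% of all tested genes were called and 51.1% were lower. Lists of this size seldom hold a called gene at that share. Of 22 ATF4 targets 11 were lower and 11 higher (median 0.001), of 20 ER chaperone and unfolded protein genes 14 were lower (median -0.03), of 21 NRF2 targets 10 were lower (median 0.002), and of 27 hypoxia and glycolysis genes 19 were lower (median -0.03). In the adhesion and mesenchymal transition list 12 of 17 were higher (median 0.02), and of 8 aryl hydrocarbon receptor targets 4 were higher (median -0.002). The intervals of all 22 ATF4 targets, all 20 chaperone genes and all 21 NRF2 targets lay within 1.5-fold. The medians of the ATF4, NRF2, aryl hydrocarbon receptor, proliferation and osmolyte lists, all near 0, changed sign over the alternatives.

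The same contrast, ascites against its absence, was available in cells given 200 uM bezafibrate, in 6 libraries that this comparison does not share. There 16 genes were called with edgeR, 5 higher and 11 lower, or 0.128% of those tested. Called in both settings were 6 genes, among them TFRC, SCD, INSIG1, IDI1 and MSMO1. Their log2 fold changes without and with the drug were -0.57 and -0.49 for TFRC, -0.22 and -0.22 for SCD, -0.40 and -0.33 for INSIG1, -0.23 and -0.25 for IDI1, and -0.26 and -0.30 for MSMO1. Of the 11 genes called without the drug 10 had the same sign with it, the exception being RAB43 at 0.15, and of the 16 called with the drug 15 had the same sign without it.
The 22 cholesterol enzymes were lower in 19 cases without the drug and in 19 with it, 17 of them the same enzymes. The median log2 fold changes without and with the drug were -0.11 and -0.15 for the mevalonate arm, -0.11 and -0.12 from squalene to cholesterol, -0.06 and -0.11 for sterol sensing and uptake, and -0.08 and -0.12 for fatty acid synthesis. HMGCS1, FADS1, SQLE and FASN were called with the drug and not without it, at -0.14, -0.16, -0.23 and -0.19.

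The difference between the 2 settings was tested as an interaction, and edgeR called 0 genes (0% of those tested), with 445 at an unadjusted p under 0.05, and DESeq2 called 1. The intervals of the difference are given for the main genes. The effect with the drug minus that without it was 0.08 for TFRC (95% interval -0.002 to 0.16), 0.01 for SCD (-0.07 to 0.08) and 0.07 for INSIG1 (-0.09 to 0.23). For HR, whose drug-treated log2 fold change was -0.12, it was 0.18 (0.03 to 0.34, edgeR adjusted p 0.999). The mean level of HR was 40.2 CPM in control and 132.7 CPM with bezafibrate alone, and 32.6 and 121.7 CPM with ascites added. The YAP targets CCN1, CCN2 and ANKRD1 were called higher with the drug, at 0.26, 0.23 and 0.40. Without it they stood at 0.11, 0.06 and 0.10. The differences were 0.15 (95% interval 0.01 to 0.29), 0.17 (0.05 to 0.29) and 0.30 (0.10 to 0.50), with an edgeR adjusted p of 0.999 each. Without ascites these genes were at 98.6, 136 and 142 CPM in control and at 68.2, 69.5 and 62.6 CPM with bezafibrate. Without the replicate 3 library of bezafibrate with ascites, described above, 28 genes were called in the drug-treated cells and 0 in the interaction.

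**Figure D4:**
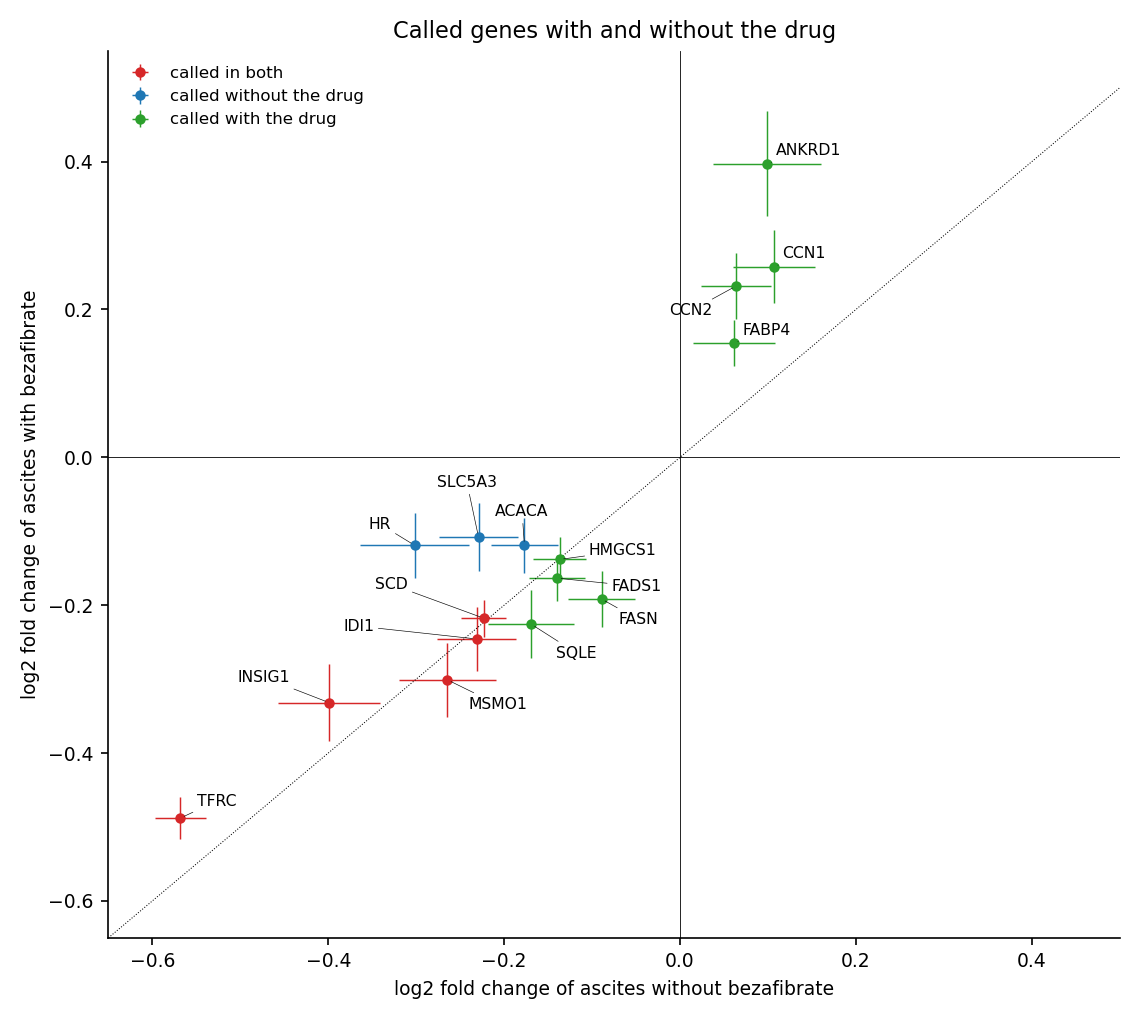
Log2 fold change of ascites without bezafibrate (horizontal) and with it (vertical) for 16 genes called in either setting. Bars are standard errors and the dotted line marks equal change. RAB43 and TREX2 are among the called genes left out. TFRC and INSIG1 lie farthest to the lower left, near the line of equal change.

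A trend with transcript length ran through the comparison and is given beside the counts above. With the genes divided by transcript length into 5 groups of about equal size, from the shortest to the longest, the median log2 fold change went from 0.019 through 0.0086, 0.0017 and -0.0085 to -0.026, while in the drug-treated cells it went from 0.0032 to -0.0061. In the longest group 195 genes were lower and 28 higher at an unadjusted p under 0.05, and in the shortest group 40 were lower and 89 higher. The median of the longest group minus that of the shortest was -0.02, 0.05 and 0.03 in the control libraries and -0.02, -0.05 and -0.003 in the ascites libraries, so that the replicate 1 library of control overlapped the ascites group. As an alternative chosen after seeing the data, this trend and one in GC content were removed from each library. At an unadjusted p under 0.05 there were then 463 lower and 384 higher genes in all, against 453 and 296 before, with 104 lower and 108 higher in the longest group and 87 lower and 59 higher in the shortest. TFRC, SCD, INSIG1, IDI1, MSMO1, SLC5A3 and HR remained called, with log2 fold changes from -0.55 for TFRC to -0.19 for SLC5A3, while ACACA went from -0.18 to -0.14 with an edgeR adjusted p of 0.0518. RAB43 was no smaller, at -0.79 after -0.78, but had an edgeR adjusted p of 0.137.

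**Figure D5:**
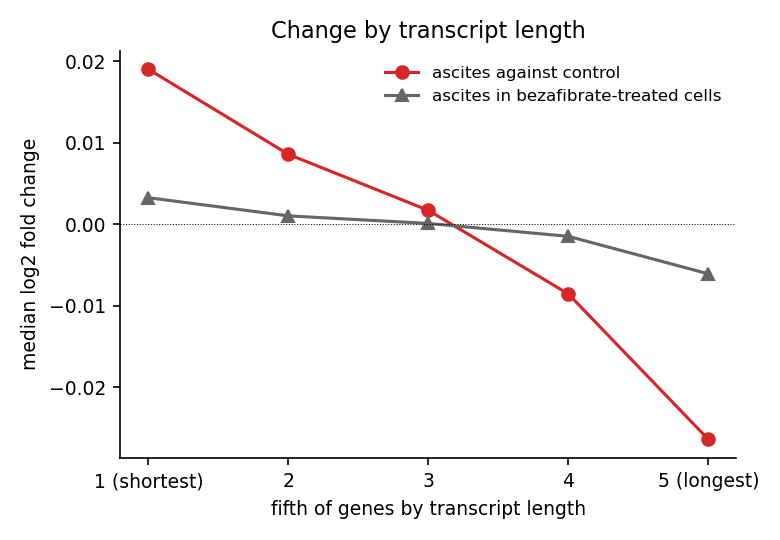
Median log2 ratio of ascites over its absence in 5 groups of the tested genes by transcript length, without bezafibrate (red circles) and with it (grey triangles). Without the drug the median goes from 0.019 in the shortest group to -0.026 in the longest.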

How the data were processed

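RNA sequencing of CAOV3 cells was deposited as 1 table per library of whole-number counts per gene, made by the authors, with an Ensembl identifier joined to a symbol. Trimmomatic 0.39, STAR 2.7.9a, RSEM 1.3.3, DESeq2 1.28.1 and GRCh38 are named in the submitters' processing notes. Which tool made the counts, the annotation and the strand setting are not given in the sources used here. Reads shared by overlapping or near-identical genes may therefore be divided in a way that is not known.

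Groups and replicate numbers came from the titles. Genes were kept with filterByExpr of edgeR 4.0.16 (minimum count 10, minimum total count 15). Libraries were scaled by TMM, with factors from 1.001 to 1.011 in the 6 libraries. The quasi-likelihood test with robust estimation was fitted in R 4.3.3 to 4 groups over 12 libraries (8 residual degrees of freedom, common biological coefficient of variation 3.06%). Genes were called where the p adjusted over all 12470 genes by the Benjamini-Hochberg method lay under 0.05. The SE is the size of the log2 ratio over the root of the F statistic, and intervals are at 95%. CPM are counts over TMM-scaled library sizes, except the summed levels of the marker lists, which are over total counts without a TMM factor. Median SEs of the log2 fold change were 0.435 under 1 CPM, 0.184 from 1 to 10, 0.065 from 10 to 100 and 0.038 above. Alternatives covered scaling, filters, DESeq2 1.42.0, limma 3.58.1 (voom), the samples in the fit, the replicate number as a block, thresholds, read-through genes and left-out libraries. Statistics were tested on simulated data.

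The genes named are the called genes, the 12 uncalled genes of lowest p in each direction and the 5 largest and 5 smallest changes (symbol, mean of at least 1 CPM, no overlap for the last). To these were added the iron, cholesterol and fatty acid lists, up to 3 members of each other list (all of a list of 14 or fewer), and genes called in drug-treated cells. The comparison and the gene lists were chosen with earlier results of these data known. Lists are described by counts and medians, without a test. Lengths, GC content, hairpins and gene spans came from GENCODE 29, promoters from RefSeq (GRCh38.p14). Some genes of these lists are not reported here and are counted only.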

Additional observations from a re-analysis of the deposited data

How the results depend on the processing

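TFRC, SCD and INSIG1 were called in every one of the 6 fits that left out 1 library and in all 13 other alternatives run with the same threshold, and no named gene or list changed sign while called. The count of 11 called genes was between 8 and 14 with edgeR RLE scaling, upper-quartile scaling, total counts, a minimum count of 50, no robust estimation, summed read-through genes, DESeq2, trends removed and an adjusted p under 0.1. It was 59 without a filter on low counts (25 higher), 33 in the fit of only the groups compared, 7 with limma-voom and 4 at an adjusted p under 0.01. It ranged from 3 to 5 when 1 library was left out, whichever of the 6 it was. The replicate number gave no sign of pairing: deviations of same-numbered control and ascites libraries correlated at -0.017, 0.010 and -0.080. With that number as a block the count was 8, and with the block in only the groups compared, added after seeing the data, it was 20. In drug-treated cells the 16 called genes became 52 without a filter, 7 in only the groups compared, 6 at an adjusted p under 0.01, 34 with trends removed (also added after seeing the data), 14 with the block, and 9 to 28 with 1 library left out (10 and 9 without bezafibrate replicates 1 and 2, 28 without replicate 3 of bezafibrate with ascites). The interaction count of 0 became 36 without a filter, 1 with the block, 1 with DESeq2, and 0 to 3 with 1 library left out (3 without the replicate 1 library of bezafibrate with ascites). The cause of these differences was not tested. Depth limits genes under 1 CPM, where the median upward margin of the 95% interval of the fold change was 84.3%.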

Other observations

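The fit of these 6 libraries alone, which estimates the spread from 4 residual degrees of freedom in place of 8, called 10 higher genes, named here after their values were seen. FOSL1, MT2A, FAU, RPS19, RPS21 and ATP5F1D were among them. FOSL1 and MT2A had log2 fold changes of 0.16 and 0.15 (edgeR adjusted p 0.0317 for each). The ribosomal protein genes RPS19, RPS21 and FAU had log2 fold changes of 0.09, 0.12 and 0.13 in that fit, and in drug-treated cells they stood at -0.002, -0.02 and 0.06. The trend with transcript length described above was not removed in that fit, and its part in these values was not tested. ATP5F1D, a subunit gene of the mitochondrial ATP synthase, was at 0.14. The other 4, LIMS3, C4B, ISY1-RAB43 and HSPE1-MOB4, share sequence with other genes and are uncertain. In the fit of all 12 libraries the adjusted p of these 10 genes ranged from 0.187 for C4B to 0.949 for RPS21.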
